A study of Mus musculus with 3 samples.

Results

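Transcripts that mark enteric neurons and enteric glia were examined in the distal colon, as 34 genes given by symbol, 29 for neurons and 5 for glia. A gene was represented by the probe set annotated with its symbol alone, and where it had several, by whichever was brightest on average. All 34 were measured, out of 19938 genes on the array with such a probe set, and only Stmn3 had more than 1. No member was removed for a low signal.

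The enteric nervous system is a network of neurons and glia in the wall of the gut. Its ganglia lie in the myenteric plexus, between the muscle layers, and in the submucosal plexus, and they control motility, secretion and blood flow. Excitatory motor neurons release acetylcholine and tachykinins, whereas inhibitory motor neurons release nitric oxide and vasoactive intestinal peptide. Glia surround the neurons and reach into the mucosa. Because the cell bodies are few in a piece of colon, their transcripts form a small part of whole-tissue RNA.

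RNA came from distal colons of BALB/c males aged 10 to 12 weeks. WT normal was a pool of 4 wild-type mice given plain drinking water, WT colitis a pool of 3 wild-type mice given 3% dextran sulfate sodium (DSS), which injures the colonic epithelium, and IL-4Rα-/- colitis a pool of 6 littermates homozygous for the disrupted Il4ra tm1Sz allele in every cell, given the same DSS. All were taken on day 7. No untreated IL-4Rα-/- array was analysed here, so effects of genotype and of colitis in that genotype cannot be told apart. Each pool was measured on 1 array. A difference between arrays is thus given without an error or a test, and the number of arrays limits its precision. Where 3 log2 signals of a gene are listed, the order is WT normal, then WT colitis, then IL-4Rα-/- colitis.

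Il4ra, the targeted gene, had log2 signals of 5.69, 6.63 and 4.76, and where its probes lie relative to the disrupted part was not examined. Colons of the pooled mice measured 10.5 to 12.6 cm in WT normal, 7.8 to 8.2 cm in WT colitis and 8.2 to 11.3 cm in IL-4Rα-/- colitis. The median log2 signal over all probe sets was 4.11, 4.18 and 4.11. As a guide to background, 1210 probe sets for olfactory and vomeronasal receptors had a median of 2.44 and a 95th percentile of 3.5, and 1.74% of their values reached 4. A log2 signal under 4 is therefore given without a fold. Of the neuron genes, 21 of 29 had at least 4 on every array and 8 were below 4 on every array. Markers of the labelled tissue were present, with the colonocyte enzyme Car1 between 12.67 and 12.83 and the smooth muscle actin Actg2 between 10.55 and 10.93.

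WT colitis was above both other arrays for 19 of 29 neuron genes (65.5%), where 30.4% of all genes had that pattern. With ties counted, it was highest for 29 of 29, but this was so for 84.3% of all genes. Set against WT normal, WT colitis was higher by any amount for 19 of 29 (65.5%), equal for 10 and lower for 0. Over all genes, 35.8% were higher and 12.0% lower in that comparison. The median log2 difference of the neuron genes was 0.20, against 0.00 over all genes. Set against WT colitis, IL-4Rα-/- colitis was lower for 22 of 29 (75.9%), equal for 7 and higher for 0, with a median of -0.25, where 37.3% of all genes were lower and 10.4% higher. Both comparisons use the same WT colitis array. The share over all genes includes many dim genes. Of the 21 neuron genes with at least 4 on every array, 15 (71.4%) were higher in WT colitis against WT normal. In IL-4Rα-/- colitis against WT colitis, 15 of the 21 (71.4%) were lower. Among the 10900 genes with at least 4 on every array, 44.7% were higher in the first comparison and 43.7% lower in the second. These directions depend on the scaling for genes that were equal or nearly so. With each array centred on its own median, WT colitis was higher than WT normal for 17 and lower for 12 of 29, where 28.1% of all genes were higher and 70.5% lower. IL-4Rα-/- colitis was then higher than WT colitis for 9 and lower for 20, where 69.5% of all genes were higher and 28.8% lower. As deposited, IL-4Rα-/- colitis was lower than WT normal for 11 of 29 (37.9%), equal for 18 and higher for 0. Over all genes, 17.9% were lower and 16.4% higher. Centring left these counts unchanged, since both arrays have the same median. With quantile normalization, 11 of 29 were higher, 6 equal and 12 lower, where 50.9% of all genes were higher and 36.6% lower. In bulk tissue, fewer cells of a type and less RNA per cell cannot be told apart.

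**Figure D1:**
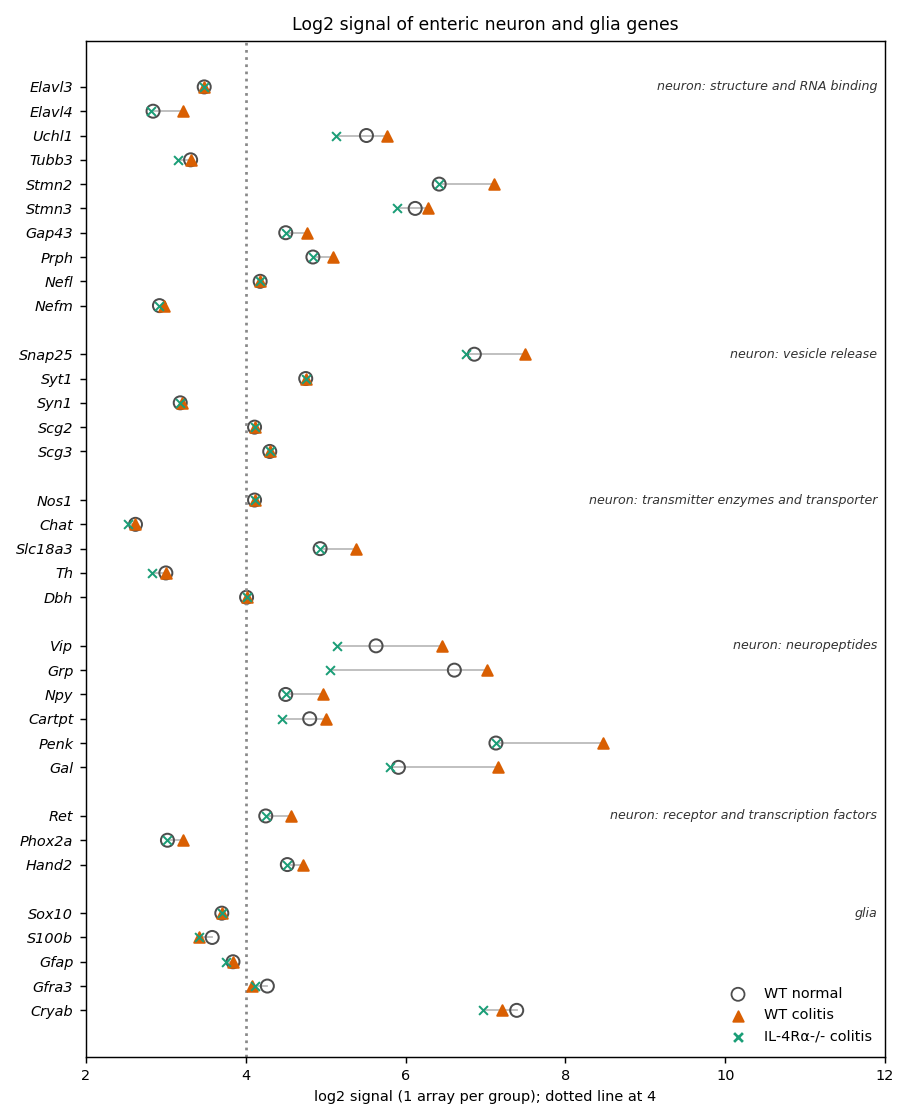
Log2 signal (x axis) of each of the 34 genes (rows, grouped by role) with circles for WT normal, triangles for WT colitis and crosses for IL-4Rα-/- colitis, 1 value per array, with the dotted line at 4. The triangle lies at the right end or coincides with the rightmost symbol in all 29 neuron rows, as it does for 84.3% of all genes. The spans are widest for the neuropeptides Grp, Gal, Penk and Vip, such as Grp from 5.05 to 7.02 and Penk from 7.13 to 8.47. Those of the neuropeptides Npy and Cartpt are narrower than that of Snap25.

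The neuropeptides stood out within the group. For all 6, the WT colitis signal exceeded both others, a pattern of 30.4% of all genes, with a median log2 difference of 0.65 from WT normal to WT colitis and of -1.33 from there to IL-4Rα-/- colitis. Every member past 2-fold in any comparison was one of them: Penk and Gal in WT colitis over WT normal, and Grp, Gal, Penk and Vip below WT colitis in IL-4Rα-/- colitis. The other 23 neuron genes had medians of 0.06 and -0.17, and their differences went no further than 0.69 and -0.75. These 23 include all 8 neuron genes below 4 on every array. The 15 that had at least 4 on every array had medians of 0.20 and -0.25.

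Past 2-fold, WT colitis was higher for 2 of 29 neuron genes and lower for 0 against WT normal, beside 1.16% and 0.456% of all genes. IL-4Rα-/- colitis was past 2-fold higher for 0 and lower for 4 of 29 (13.8%) against WT colitis, beside 0.271% and 0.908% of all genes. Against WT normal it was higher for 0 and lower for 1 of 29, beside 0.186% and 0.336%. On the log2 scale, where 2-fold is 1, Vip at 0.83 was the nearest below the threshold and Gal at 1.24 the nearest above it in WT colitis, and Snap25 at -0.75 and Vip at -1.32 lay on either side of it between the colitis arrays. An offset of 32 added to the linear signals, which shrinks differences at low signal, left 1 gene higher in WT colitis, 2 lower between the colitis arrays and 0 lower against WT normal.

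**Figure D2:**
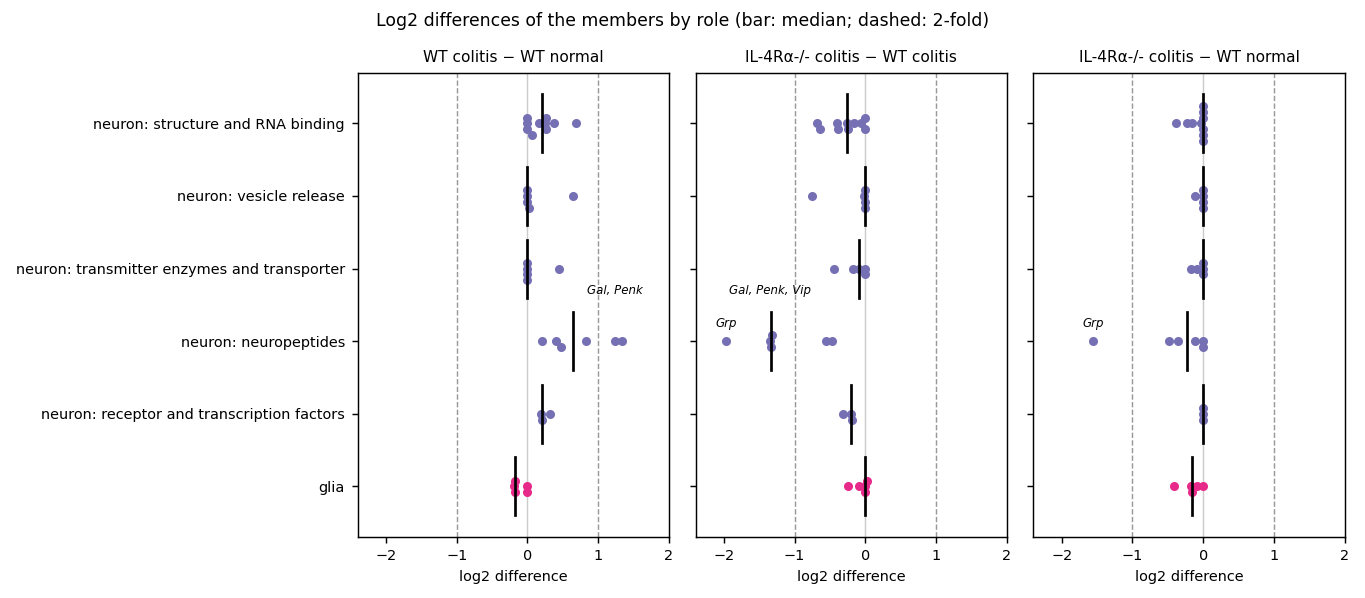
Log2 difference (x axis) of each gene by role (rows) in the 3 comparisons named above the panels, with 1 point per gene, a bar at the median and dashed lines at 2-fold. The named points are those past 2-fold, and all are neuropeptides, from -1.97 for Grp to 1.34 for Penk.

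Grp encodes gastrin-releasing peptide, a bombesin-like transmitter of enteric neurons. It had 6.61, 7.02 and 5.05. The step of 3.92-fold down from WT colitis to IL-4Rα-/- colitis was the greatest of the 34 genes, and 31 of 19938 genes had a greater decrease. Grp was also 2.95-fold below WT normal there, so that IL-4Rα-/- colitis stood apart from both wild-type arrays, which differed 1.33-fold. With the offset, the decrease of Grp was -1.31 from WT colitis and -0.99 from WT normal on the log2 scale, the latter within 2-fold.

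Penk is the precursor of the enkephalins, opioid peptides that slow transit, and it is also made by cells other than neurons, among them some lymphocytes. It had 7.13, 8.47 and 7.13. WT colitis was thus 2.53-fold above each of the others, which were equal to 2 decimals. Gal encodes galanin, a peptide with effects on motility and secretion, and had 5.91, 7.15 and 5.80. WT colitis exceeded WT normal 2.36-fold and IL-4Rα-/- colitis 2.55-fold, while the latter arrays differed 1.08-fold. With the offset, the decrease of Gal was -0.99 and its increase 0.92 on the log2 scale.

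Vip, the relaxant peptide of inhibitory motor and secretomotor neurons, had 5.63, 6.46 and 5.14. All 3 arrays differed. WT colitis exceeded WT normal 1.78-fold and IL-4Rα-/- colitis 2.50-fold, and WT normal exceeded IL-4Rα-/- colitis 1.40-fold. With the offset, the decrease of Vip between the colitis arrays was -0.84 on the log2 scale, within 2-fold. Npy, neuropeptide Y, had 4.50, 4.97 and 4.50, a difference of 1.39-fold in either direction. Cartpt, the precursor of a peptide found in many myenteric neurons, had 4.80, 5.0 and 4.45, and its decrease between the colitis arrays was 1.46-fold. Both stayed within 2-fold.

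Vip and Gal are the members past 2-fold for which RefSeq promoter sequence was at hand, and the 250 bases before each start site are shown so that the elements of a peptide gene promoter can be compared. Capitals mark TGACG, the core of the cyclic AMP response element, and TATAAA, the TATA box, on either strand. The Vip stretch is chr10:5638968-5639217 on the + strand and the Gal stretch chr19:3414545-3414794 on the - strand of GRCm38.p6, a build that the array values do not name.
Vip: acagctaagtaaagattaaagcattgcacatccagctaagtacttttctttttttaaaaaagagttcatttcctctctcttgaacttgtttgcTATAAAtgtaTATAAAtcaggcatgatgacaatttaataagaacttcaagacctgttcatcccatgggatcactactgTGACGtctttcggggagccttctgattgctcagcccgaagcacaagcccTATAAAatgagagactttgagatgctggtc
Gal: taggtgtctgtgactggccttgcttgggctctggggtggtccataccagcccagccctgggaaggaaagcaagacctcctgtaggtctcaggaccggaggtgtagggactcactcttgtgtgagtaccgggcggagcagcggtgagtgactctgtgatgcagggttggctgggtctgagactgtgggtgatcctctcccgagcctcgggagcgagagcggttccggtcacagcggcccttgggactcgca
The Vip stretch held 1 TGACG and 3 TATAAA and had a GC content of 38.4%, whereas the Gal stretch held neither and had 62.4%. Promoters were matched for 23 of the 34 genes. A gene counted when any of its promoter stretches held the motif. The share over all is per stretch instead, so a gene with several stretches has more chances to count. TGACG was found in 12 of the 23, against 17.8% of all 32851 promoter stretches of that length. The full element TGACGTCA, which contains TGACG on each strand, was found in Cartpt, Scg2, Syn1 and Th, 4 of 23, against 1.55% of all. TATAAA was found in 3 of 23, Elavl3, Prph and Vip, against 12.4% of all. These are matches of letters only. Of the 4 genes with the full element, Scg2 was equal on all 3 arrays, while the differences of Syn1, Th and Cartpt went no further than -0.55 on the log2 scale. Syn1 and Th were under 4 on every array, so their differences could not be read. Whether the element bears on the signals was not tested.

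Among the 10 genes of neuronal structure and RNA binding, WT colitis exceeded WT normal for 7 and IL-4Rα-/- colitis for 8. Over all genes, WT colitis exceeded WT normal for 35.8% and IL-4Rα-/- colitis for 37.3%. The 7 include Elavl4 and Nefm, and the 8 also Tubb3, all below 4 on every array. Medians of the 2 comparisons were 0.205 and -0.255, and 0 were past 2-fold, as was so for nearly all genes on the array. Stmn2, a regulator of microtubules in growing axons, had 6.42, 7.11 and 6.42, a difference of 1.61-fold. Uchl1, a ubiquitin hydrolase known as the pan-neuronal marker PGP9.5, had 5.51, 5.77 and 5.13, so that the IL-4Rα-/- colitis signal was exceeded 1.56-fold by WT colitis and 1.30-fold by WT normal.
Stmn3, a relative of Stmn2, had 6.12, 6.28 and 5.89 on the probe set used. Its other probe set had 2.29 on all 3 arrays, in the range of background. Gap43, a protein of growth cones, had 4.50, 4.76 and 4.50. Prph, the intermediate filament of peripheral neurons, had 4.84, 5.09 and 4.84. WT colitis was the higher array for both and the other arrays were equal. Nefl, the light neurofilament chain, had 4.18 on all 3 arrays. The 4 others, namely Elavl3, Elavl4, the neuronal tubulin Tubb3 and the neurofilament Nefm, were between 2.81 and 3.48 on every array, so these pan-neuronal markers could not be read at this signal.

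Of the 5 genes of vesicle release, Snap25 was the one with a clear difference. It encodes a SNARE protein that drives fusion of vesicles with the membrane and had 6.86, 7.50 and 6.75. WT colitis exceeded WT normal 1.56-fold and IL-4Rα-/- colitis 1.68-fold. Syt1, the calcium sensor of release, had 4.75 on every array, and the secretogranins of dense-core vesicles, Scg2 and Scg3, had 4.11 and 4.30 on every array. Syn1, a synaptic vesicle protein, was near background at 3.18, 3.20 and 3.18.

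Among 5 enzymes and transporters of classical transmitters, Slc18a3 was alone in being higher in WT colitis. It loads acetylcholine into vesicles and had 4.93, 5.38 and 4.93, a difference of 1.37-fold. Chat, which makes acetylcholine and whose gene encloses Slc18a3, was at background with 2.62, 2.62 and 2.53, so the cholinergic pair cannot be set side by side. Nos1, the neuronal nitric oxide synthase, had 4.11 and Dbh, the noradrenaline-forming enzyme, 4.01 on all 3 arrays. Th, the first enzyme of catecholamine synthesis, had 3.00, 3.00 and 2.83, also at background. Thus no difference between the arrays was detectable for nitrergic or catecholaminergic enzymes at these signals.

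The receptor and the transcription factors of the enteric lineage differed by little. Ret, the signalling receptor for glial cell line-derived neurotrophic factor, had 4.25, 4.57 and 4.25. Hand2, which is needed for enteric neurons to mature and is also made in mesenchyme, had 4.52, 4.72 and 4.52. Phox2a, an autonomic neuron factor, was under 4 with 3.02, 3.21 and 3.02, so its difference could not be read. WT colitis was above both other arrays for each, as it was for 30.4% of all genes. WT normal and IL-4Rα-/- colitis alone were equal for each, as they were for 20.0% of all genes.

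For the 5 glial genes the differences were small, from -0.42 to 0.03 on the log2 scale. Set against WT normal, WT colitis was higher for 0, equal for 2 and lower for 3, with a median of -0.17, where 35.8% of all genes were higher and 12.0% lower. Set against WT colitis, IL-4Rα-/- colitis was higher for 1, equal for 2 and lower for 2, with a median of 0.00, where 10.4% of all genes were higher and 37.3% lower. Against WT normal it was higher for 0, equal for 1 and lower for 4, with a median of -0.16, where 16.4% were higher and 17.9% lower. With arrays centred, WT colitis was lower than WT normal for all 5, as it was for 70.5% of all genes. IL-4Rα-/- colitis was then higher than WT colitis for 3 and lower for 2, where 69.5% of all genes were higher and 28.8% lower. None of the 5 passed 2-fold, as was so for nearly all genes on the array. Of the 5, 3 were below 4 on every array, including the defining markers. Sox10, the transcription factor of glia, had 3.70 throughout. S100b, a calcium-binding protein, had 3.58, 3.41 and 3.41, and Gfap, the glial intermediate filament, 3.84, 3.84 and 3.75. Gfra3, a co-receptor for artemin, was just above at 4.27, 4.08 and 4.11.
Cryab, a small heat shock protein that muscle also makes, was the only bright member. It had 7.39, 7.21 and 6.97, 1.34-fold lower in the last than in the first. Of 16 smooth muscle genes, 5 were higher and 6 lower in WT colitis against WT normal, and 1 was higher and 10 lower in IL-4Rα-/- colitis against WT colitis. Over all genes, 35.8% were higher and 12.0% lower in the first comparison, and 10.4% higher and 37.3% lower in the second. The part of muscle in the Cryab signal was not tested. The glial label therefore rests on transcripts close to background plus 1 that is not specific.

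Further genes of the enteric nervous system were looked up. Of 38 measured further neuron genes, 22 were higher and 2 lower in WT colitis against WT normal, and 24 were lower and 1 higher in IL-4Rα-/- colitis against WT colitis, with medians of 0.115 and -0.15. Over all genes, 35.8% were higher and 12.0% lower in the first comparison, and 37.3% lower and 10.4% higher in the second. Past 2-fold were 2 higher in WT colitis, Tacr1 and Tac1, and 2 lower in IL-4Rα-/- colitis, Tacr1 and Sst. The shares of all genes past 2-fold in these directions were 1.16% and 0.908%. Tac1, the precursor of substance P, had 6.00, 7.04 and 6.51. Tacr1, the receptor for substance P, had 4.74, 6.38 and 4.86. It is present on neurons, muscle and other cells.
Sst, somatostatin, which endocrine D cells make as well as neurons, had 8.41, 8.91 and 7.62. Like Grp, it was lowest in IL-4Rα-/- colitis, below WT normal by 0.79. Ncam1, a neural adhesion molecule, had 5.68, 6.28 and 5.32.

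Of 16 further glia genes, 10 were higher in WT colitis against WT normal, where 35.8% of all genes were higher and 12.0% lower. Of the same 16, 12 were lower in IL-4Rα-/- colitis against WT colitis, where 37.3% of all genes were lower and 10.4% higher. In both comparisons, 0 of the 16 went the other way. Their medians were small, 0.07 and -0.085, and 9 of the 16 were below 4 on every array. One stood apart: Gpm6b, a membrane glycoprotein of neurons and glia that other cells also make, had 5.14, 6.90 and 5.14, a 3.39-fold difference. Scn7a, a sodium channel found in glia, had 6.35, 6.80 and 6.35. Of 9 neurotrophic ligands, 0 passed 2-fold, as was so for nearly all genes on the array, and 4 were below 4 on every array. Gdnf, the ligand of the Ret complex, was near 4 with 4.00, 4.05 and 3.86. Artn is counted both among these ligands and among the further glia genes.

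Markers of other cells on the same arrays are given because the tissue was whole colon. Of 10 leukocyte markers, 8 were higher in WT colitis against WT normal, where 35.8% of all genes were higher. In IL-4Rα-/- colitis against WT colitis 8 were lower, where 37.3% of all genes were lower. The medians of the 10 markers were 0.37 and -0.38, and none was below 4 on every array. Their summed linear signal was 1221, 1700 and 1157, while that of the 6 neuropeptides was 398, 778 and 309 and that of the other 23 neuron genes 623, 791 and 591. All of these sums were highest in WT colitis, and the part of leukocytes in the neuronal values was not tested.
The 16 smooth muscle genes had medians of 0.00 and -0.175 and a summed signal of 11772, 11124 and 9834. Past 2-fold were 0 of them, as was so for nearly all genes on the array. Of 4 measured markers of interstitial cells of Cajal, the pacemaker cells beside the plexus, Ano1 had 8.16, 7.09 and 7.72. Thbs4 had 8.40, 7.15 and 8.05. WT colitis was more than 2-fold under WT normal for both, as it was for 0.456% of all genes. Kit had 7.19, 7.43 and 7.19, and Prkcq was below 4 on every array. The part of other cells in the Ano1 and Thbs4 signals was not tested. Of 15 enteroendocrine genes, 2 were higher, 9 equal and 4 lower in WT colitis against WT normal, and 5 were below 4 on every array, so the median of 0.00 says little. In that comparison, 35.8% of all genes were higher and 12.0% lower. Insl5 and Pyy, peptides of colonic endocrine cells, were more than 2-fold under WT normal in WT colitis, as were 0.456% of all genes. Sst, given above, was higher there. The part of endocrine cells in the peptide signals was not tested. Epithelial markers had medians of -0.12 and 0.07.

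**Figure D3:**
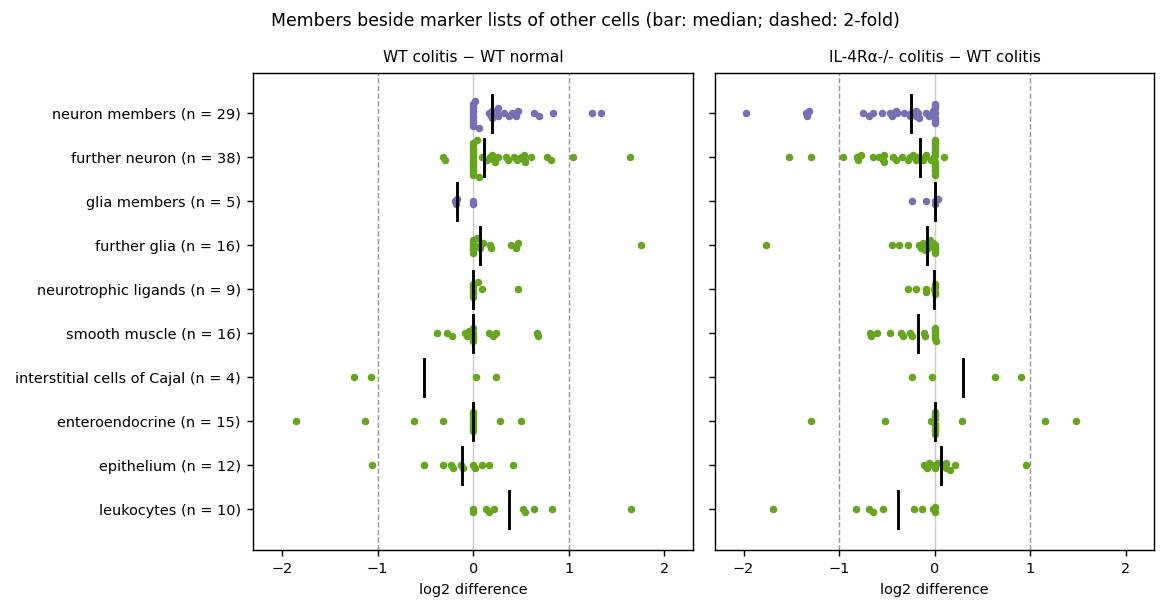
Log2 difference (x axis) of each measured gene in the neuron and glia lists and in marker lists of other cells (rows), in the comparisons of WT colitis with WT normal (left) and of IL-4Rα-/- colitis with WT colitis (right), with 1 point per gene, a bar at the median and dashed lines at 2-fold. Neuron members have medians of 0.20 and -0.25 and leukocytes of 0.37 and -0.38, while smooth muscle has 0.00 and -0.175.

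Many of these values were equal between arrays to the 2 decimals deposited. Among the 29 neuron genes, 7 (24.1%) had the same log2 signal on all 3 arrays and 11 (37.9%) had the same in WT normal and IL-4Rα-/- colitis only, against 45.8% and 20.0% of all genes. In 3 (10.3%) the wild-type arrays were equal, against 6.48%, and in 0 the colitis arrays were, against 6.52%. The remaining 8 (27.6%), against 21.2%, differed on all 3 arrays: Elavl4, Uchl1, Stmn3, Snap25, Vip, Grp, Cartpt and Gal. In all 8, the order was WT colitis, then WT normal, then IL-4Rα-/- colitis. The share of all genes with this order was not counted, so it is not known whether the 8 differ from others in it. Elavl4, at 2.84, 3.21 and 2.81, was below 4 on every array. The shares of all genes include many dim genes. Of the 11093 genes with a mean signal of 4 or more, 3549 were equal on all 3 arrays. WT normal and IL-4Rα-/- colitis alone were equal in 23.1% of the 11093, and 31.3% differed on all 3 arrays. The neuron share of 27.6% was thus above that of all genes but below that of these brighter genes. Some neuron genes were below 4, so neither set matches them in signal. The equal values are those of the deposited table, and how they arose was not tested.

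**Figure D4:**
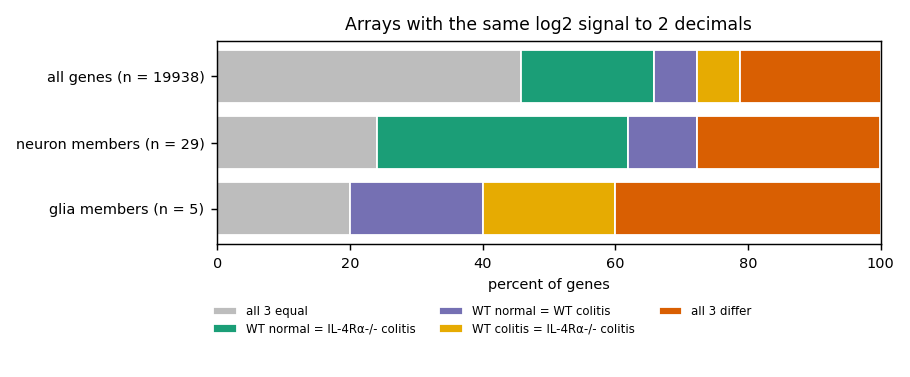
Percent of genes (x axis, from 0) by which arrays have the same log2 signal to 2 decimals, for all 19938 genes, the 29 neuron genes and the 5 glia genes. The segment for WT normal equal to IL-4Rα-/- colitis spans 37.9% of the neuron genes and 20.0% of all genes.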

How the data were processed

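The authors pooled RNA within each group and hybridised it to the Mouse Gene 1.0 ST GeneChip. Values for 28944 probe sets were deposited as log2 signals, rounded to 2 decimals, on a common scale and not centred on 0. Per the study's methods, GeneChip Analysis Suite and Transcriptome Analysis Console were used. Median centring is mentioned there for a colour display, and the deposited values do not show it. How they were summarised and normalized is not stated in the sources used here, so how that step bears on small differences and on equal values is not known here. Per the labels, RNA was labelled with Cy3 by an Agilent kit, which does not go with the GeneChip of the methods, but the probe sets carry the numbers of that GeneChip.

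Gene names were those of the platform annotation, and for 21698 of the 21789 probe sets with a single symbol they were updated through the RefSeq gene number. Differences were taken between log2 signals, with no test, because each group had 1 array. More than 2-fold was used as the threshold. All members are named. From each other list, up to 4 genes with the largest difference were eligible, and others (Car1 and Actg2) were chosen after their values were seen. The members, lists and rules were chosen with earlier results of these data known. Alternatives were quantile normalization, centring on the array median, leaving out members under the median signal of all probe sets, an offset of 32, averaging the probe sets of a gene, and omitting Cryab. The counting step was tested on simulated data. Python 3.11.15, numpy 2.4.6, pandas 2.3.3 and matplotlib 3.10.9 were used.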

Additional observations from a re-analysis of the deposited data

How the results depend on the processing

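The neuron medians kept their sign but not their size. From 0.20 in WT colitis minus WT normal and -0.25 in IL-4Rα-/- colitis minus WT colitis, quantile normalization brought them to 0.117 and -0.148, centring on array medians to 0.13 and -0.18, and the offset of 32 to 0.087 and -0.087, the last by its construction, since it shrinks dim signals. Leaving out members under the median signal kept 18 neuron and 2 glia genes and gave a neuron median of -0.46 between the colitis arrays. Past 2-fold, the offset left 1 neuron gene higher in WT colitis against WT normal, 2 lower in IL-4Rα-/- colitis against WT colitis and 0 lower in IL-4Rα-/- colitis against WT normal. The glia median of WT colitis minus WT normal, -0.17 as deposited, was -0.227 with quantile normalization and -0.24 with centring. It was -0.044 with the offset and -0.085 without Cryab. Between the colitis arrays, the glia median of 0.00 became 0.053 with quantile normalization, 0.07 with centring and -0.105 over the 2 brighter genes. The glia median of IL-4Rα-/- colitis minus WT normal was -0.044 with the offset and -0.29 over the 2 brighter genes. Glia counts past 2-fold were 0 throughout and could hardly be otherwise, given their small differences. Centring moved the median of all genes by -0.07 in WT colitis minus WT normal. No paired analysis was possible because each group had 1 array, and for the same reason no array could be left out. Signals of 8 neuron and 3 glia genes lay under 4 on every array, which limits what can be seen of them.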
